A study of Mus musculus with 12 samples.

Results

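Nr4a1, Nr4a2, Nr4a3, Npas4, Klf2, Klf4, Atf3, Maff, Btg2 and Dusp1 are genes whose transcripts rise within minutes to hours of neuronal firing or of stress. They were chosen by symbol, with 1 transcript cluster (the set of probes that reads a transcript) per gene, and make up 10 of the 22180 genes that have a cluster of their own among the 41345 clusters of the array. Each of the 10 had exactly 1 such cluster (17315178 for Nr4a1, 17385374 for Nr4a2, 17413945 for Nr4a3, 17361435 for Npas4, 17502440 for Klf2, 17425401 for Klf4, 17231033 for Atf3, 17312989 for Maff, 17227089 for Btg2 and 17342642 for Dusp1), and all 10 had a mean log2 signal of at least 5. The study asked whether an overactive Ptpn11 allele alters the gene expression that follows neuronal activity in the hippocampus. Mice of the group Ptpn11D61Y carried the conditional allele Ptpn11floxedD61Y/WT together with Emx1IREScre, which drives recombination in the excitatory neurons and astrocytes of the forebrain only, so that the other cells of a slice keep the unrecombined allele. The control mice are described differently in the sample labels, as the conditional allele without Emx1IREScre, and in the paper's breeding scheme, as littermates that carry Cre with wild-type Ptpn11. Acute hippocampal slices, 350 µm thick, came from 3 animals per genotype aged 8 to 11 weeks. Part of the slices of an animal received DMSO (basal, B) and part 2.5 mM 4AP, which blocks potassium channels, with 50 µM bicuculline, which blocks GABAA receptors (stimulated, S). Both treatments lasted 10 min and were followed by 3 h without drugs, and the 12 RNA samples were hybridized to 12 Affymetrix Mouse Gene 2.0 ST arrays, 3 in each of the 4 groups.

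Calcium that enters a firing neuron switches on kinases which phosphorylate transcription factors already bound to DNA, among them CREB on cyclic AMP response elements and SRF with its partners on CArG boxes. The genes under these elements are transcribed at once, without new protein synthesis, and are called immediate early genes. Many of them encode transcription factors that start a later set of genes at synapses, and others encode proteins that shut the response down. Ptpn11 encodes the phosphatase SHP2, which feeds the Ras/MAPK pathway, and that pathway is one of the routes from the synapse to these promoters.

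The arrays of replicate 1 stood apart in all 4 groups. Pearson's r across clusters was 0.942 to 0.965 for any pair among the 8 arrays numbered 2 or 3. It was 0.871 to 0.894 between these and the basal and mutant arrays numbered 1, and at most 0.916 between control S replicate 1 and any other array. Median signals ran from 36.5 to 58.1 per array on the linear scale. Ptpn11 itself lay between 8.32 and 8.88 on the log2 scale on all 12 arrays, but the probes read the transcript and not the D61Y codon, so they cannot check the genotype. Markers of excitatory neurons were bright, with 9 of 9 between 7.93 and 11.97 on average. One slice sample held choroid plexus RNA: on Ptpn11D61Y B replicate 3 the marker Ttr reached 13.01 against a lowest value of 4.59 over the arrays. Slices are mixtures, and fewer cells of a type and less RNA per cell cannot be told apart in them.

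The promoters of these genes are shown first, searched for elements of the kinds through which activity can reach transcription. The matches are by sequence only, and binding or a response to activity at these sites was not tested. RefSeq promoters of GRCm38.p6 (250 bases before to 50 bases after an annotated start, 300 bases in all) matched all 10 genes with 12 entries, 1 for each gene but Maff. Both strands were searched for the full cyclic AMP response element TGACGTCA, its 5-base core TGACG (the short element), which each full element holds once on either strand, the AP-1 element TGAGTCA and the CArG box. The Nr4a promoters held 4 short elements each, the largest number among the 10 genes, and are printed from 15 bases before the first to 15 bases after the last, 5′ to 3′ on the strand of the gene, with every match in capitals (CGTCA is the short element read on the other strand).
Nr4a1: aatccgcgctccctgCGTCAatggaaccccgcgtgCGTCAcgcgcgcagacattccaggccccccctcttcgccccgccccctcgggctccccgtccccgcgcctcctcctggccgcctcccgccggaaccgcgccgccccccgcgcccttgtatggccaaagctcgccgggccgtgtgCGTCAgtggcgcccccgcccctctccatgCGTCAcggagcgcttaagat
Nr4a2: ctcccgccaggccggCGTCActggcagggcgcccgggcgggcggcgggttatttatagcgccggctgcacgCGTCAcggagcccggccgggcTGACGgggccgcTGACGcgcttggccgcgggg
Nr4a3: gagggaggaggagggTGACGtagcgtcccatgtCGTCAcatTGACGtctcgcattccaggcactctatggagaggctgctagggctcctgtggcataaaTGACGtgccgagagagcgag
These stretches lie upstream of the start of each gene, at chr15:101266598-101266825 (plus strand) for Nr4a1, chr2:57124095-57124218 (minus strand) for Nr4a2 and chr4:48045059-48045177 (plus strand) for Nr4a3. At least 4 short elements were found in 0.255% of all 27025 genes with a promoter in the table and in 0.231% of all 32851 promoters.

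Npas4 held 2 short elements that face away from each other, and Btg2, Dusp1 and Maff were the 3 genes with a full element.
Npas4: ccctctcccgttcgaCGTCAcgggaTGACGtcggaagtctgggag
Btg2: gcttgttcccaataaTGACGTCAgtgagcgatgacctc
Dusp1: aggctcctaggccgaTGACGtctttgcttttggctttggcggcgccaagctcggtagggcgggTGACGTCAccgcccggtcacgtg
Maff: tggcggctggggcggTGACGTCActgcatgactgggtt
These lie at chr19:4990121-4990165 (minus strand) for Npas4, chr1:134079299-134079336 (minus strand) for Btg2, chr17:26508593-26508678 (minus strand) for Dusp1 and chr15:79347476-79347513 (plus strand) for Maff. The full element was present in 3 of the 10 genes against 2.03% of all genes (1.79% of promoters), and began at position -166 from the start in Btg2, -143 in Dusp1 and -29 in 1 of the 3 Maff promoters. Klf2, Klf4 and Atf3 held 1 short element each, so that all 10 genes had at least 1, against 23% of all genes (20.8% of promoters). No AP-1 element and no CArG box lay in these windows in any of the 10, against 5.95% and 1.81% of all genes. The 12 promoters were also rich in G and C, with 50.3% to 81.7% (median 68.2%) against a median of 52.7% over all promoters, and the part of base composition in these matches was not tested.

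**Figure D1:**
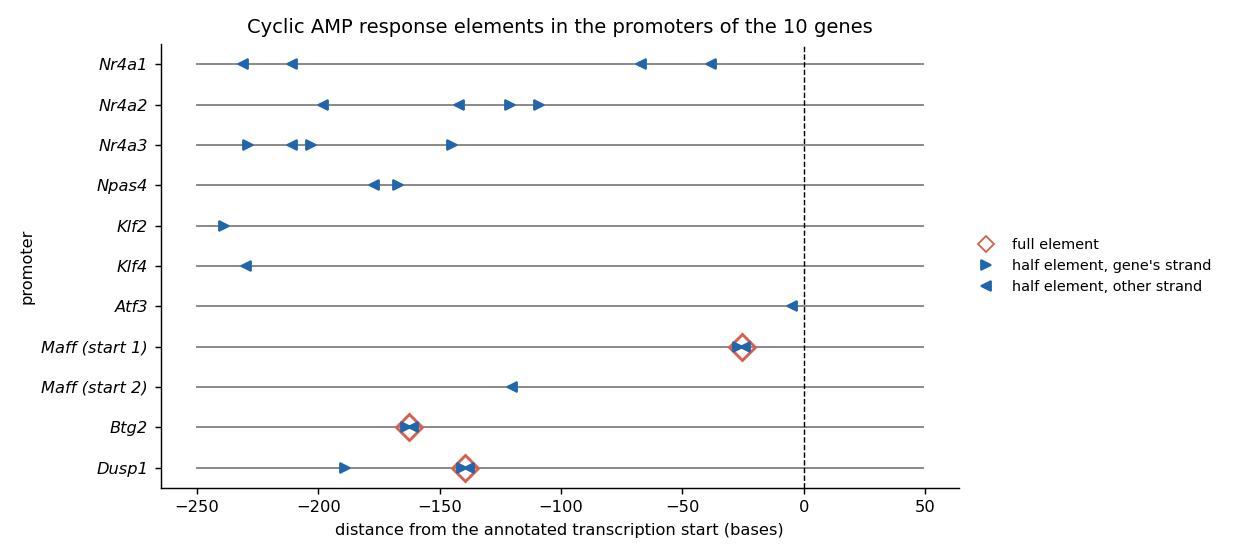
Positions of the full (diamonds) and short (triangles, pointing along the strand they are read on) cyclic AMP response elements, in bases from the annotated start at 0, for the 11 promoters of the 10 genes that hold one. The Nr4a promoters carry 4 short elements each, and the full elements of Btg2 and Dusp1 lie farther upstream than that of Maff.

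In control slices the signal of all 10 genes was on average higher after stimulation than in the basal state, by 0.08 (Dusp1) to 0.55 (Npas4) on the log2 scale, with a median of 0.25 against -0.10 over all clusters. In Ptpn11D61Y slices 9 of 10 were higher, with a median of 0.16 against -0.02 over all clusters, and Dusp1 was lower at -0.21. 0 of 10 genes passed the filter of the study, a fold change of at least 1.5 with an unadjusted p under 0.05, in limma, where 3.17% of all clusters passed in control and 1.14% in Ptpn11D61Y slices. The smallest adjusted p among the 10 (limma, Benjamini-Hochberg over all 41345 clusters) was 0.912 in control and 1 in Ptpn11D61Y slices, the smallest unadjusted p 0.280 and 0.374, and no cluster of the array passed an adjusted p of 0.05. Over both genotypes together 9 of 10 were higher and 0 passed the filter, against 1.87% of all clusters. The methods' test, run on the 2 groups compared, also passed 0 of 10, and its smallest unadjusted p among them was 0.0919 in control and 0.161 in Ptpn11D61Y slices. The counts moved as single arrays were left out. Without control B replicate 1, 4 of 10 genes were higher in control S (median -0.041). Without Ptpn11D61Y B replicate 1, 4 of 10 were higher in Ptpn11D61Y S (median -0.15). Each of these fits keeps the S array of animal 1, which lay low for most of the genes. They therefore cannot tell whether the direction rests on 1 array. Without the 4 arrays of replicate 1, all 10 were higher in S in each genotype. With 3 animals per group the p-values speak only of the spread between these animals.

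**Figure D2:**
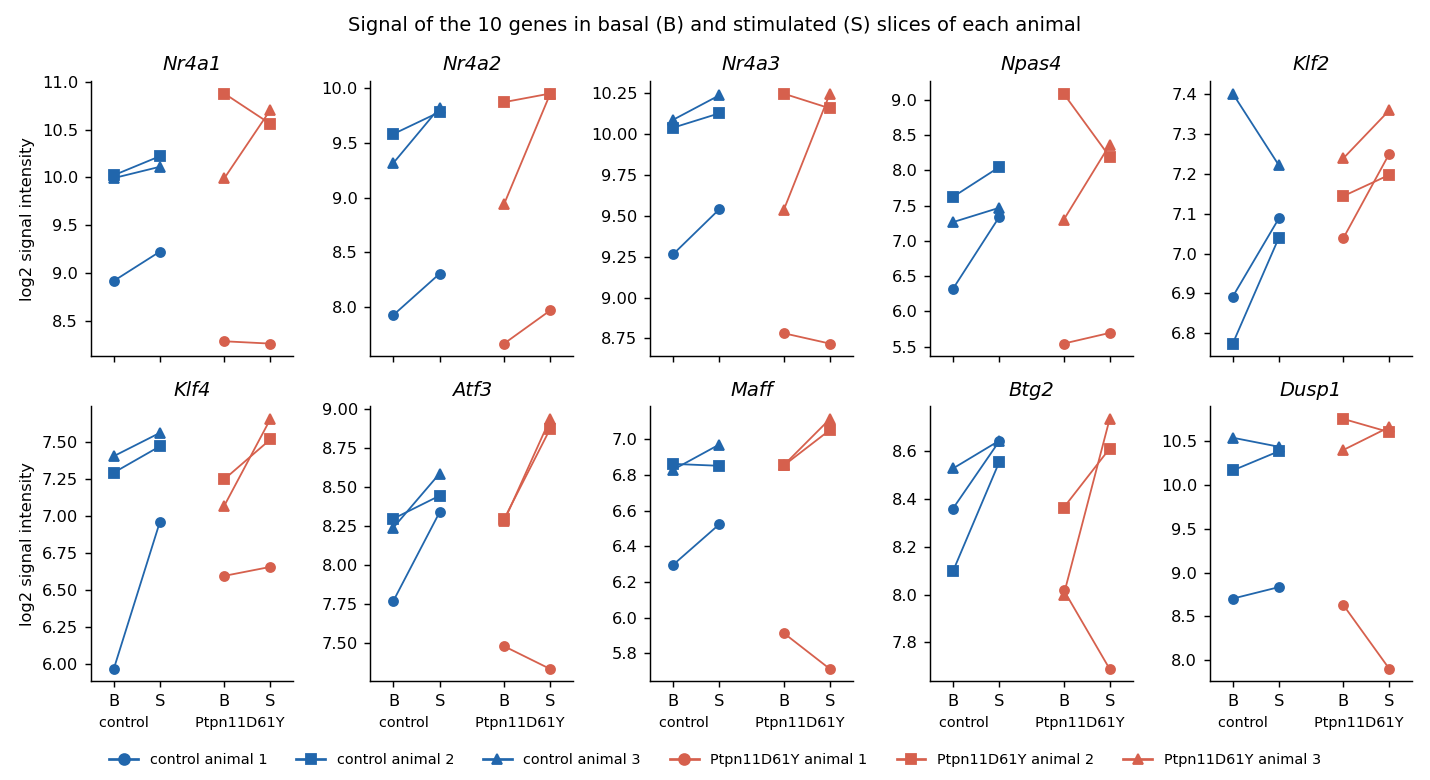
Log2 signal intensity of each gene (1 panel each, with its own axis) on the 12 arrays, with a line from the basal (B) to the stimulated (S) slices of 1 animal. Animal 1 of either genotype lies under the others in most panels, and the lines of 1 animal are short beside the distance between animals.

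Nr4a1 (Nur77), an orphan nuclear receptor that binds DNA without a ligand, had log2 signals of 8.92, 10.02 and 9.99 in control B and of 9.22, 10.22 and 10.11 in control S, in the order of animals 1 to 3. In Ptpn11D61Y slices it had 8.28, 10.88 and 9.99 in B and 8.26, 10.56 and 10.71 in S. Basal and stimulated groups overlapped in both genotypes, and the gap between animal 1 and the others was wider than any step from B to S. The step from B to S was 0.21 ± 0.73 (SE from limma, n = 3 arrays per group) in control and 0.12 ± 0.73 in Ptpn11D61Y slices. The 95% interval of the step over both genotypes ran from -0.96 to 1.30. Unless a block is named, the SEs and intervals given here and below are from fits without the animal as a block. They hold differences between animals. For Nr4a1 the SE over both genotypes was 0.52 without the block and 0.14 with it. All 3 control animals had more signal in S, by 0.31, 0.20 and 0.12, whereas only animal 3 of Ptpn11D61Y did, by 0.72, with -0.02 and -0.32 in the other two.

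Nr4a2 (Nurr1), the relative that dopaminergic neurons need for their development, was read at 7.92, 9.58 and 9.32 in control B and at 8.30, 9.78 and 9.82 in control S. The values were 7.66, 9.87 and 8.94 in Ptpn11D61Y B and 7.97, 9.95 and 9.95 in Ptpn11D61Y S. Nr4a2 was 1 of only 2 genes of the 10 with more signal in S than in B in every one of the 6 animals, with 0.38, 0.20 and 0.51 for the controls and 0.30, 0.08 and 1.01 for the mutants. Its step over both genotypes was 0.41 ± 0.50 (adjusted p = 0.894, limma), the largest mean of the 10, with a 95% interval from -0.68 to 1.503. With the animal as a block in the fit the SE was 0.13 around the same mean, and the adjusted p was 0.591.

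Nr4a3 (Nor-1), the third receptor of the family, had 9.27, 10.04 and 10.09 in control B and 9.54, 10.13 and 10.24 in control S. In Ptpn11D61Y slices the signals were 8.78, 10.25 and 9.54 in B and 8.72, 10.16 and 10.25 in S. The pattern over animals was that of Nr4a1: S was above B in all 3 control animals, by 0.09 to 0.27, and in Ptpn11D61Y only in animal 3, by 0.71. The step from B to S was 0.17 ± 0.47 in control and 0.19 ± 0.47 in Ptpn11D61Y slices.

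Npas4, a transcription factor made almost only in neurons after calcium influx and a regulator of inhibitory synapses, varied most over the 12 arrays, by 3.54 on the log2 scale. Its signals were 6.32, 7.62 and 7.26 in control B and 7.33, 8.04 and 7.47 in control S. In Ptpn11D61Y slices they were 5.54, 9.09 and 7.29 in B and 5.69, 8.19 and 8.36 in S. The highest value of all 12 was thus in a basal sample, Ptpn11D61Y B replicate 2, and the animals of that genotype moved apart, with S minus B of 0.15, -0.90 and 1.07, while the control animals had 1.01, 0.42 and 0.20. The mean step was 0.55 ± 0.84 in control and 0.11 ± 0.84 in Ptpn11D61Y slices, and the difference between the genotypes was -0.44 ± 1.19 with a 95% interval from -3.03 to 2.15 (adjusted p = 1, limma).

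Klf2 and Klf4 are zinc-finger factors of the Krüppel family. Klf2, best known from endothelium and T cells, was the steadiest of the 10: 6.89, 6.77 and 7.40 in control B, 7.09, 7.04 and 7.22 in control S. It read 7.04, 7.14 and 7.24 in Ptpn11D61Y B and 7.25, 7.20 and 7.36 in Ptpn11D61Y S. S was above B in 5 of 6 animals, and in all 3 of Ptpn11D61Y (by 0.21, 0.05 and 0.12), while control animal 3 had -0.18. The step over both genotypes was 0.11 ± 0.13 with the narrowest 95% interval of the 10, from -0.18 to 0.41. Markers of endothelium, where Klf2 is made, had a median change of -0.08 in control and -0.22 in Ptpn11D61Y slices, with 5 and 3 of 12 above 0.

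Klf4, which restrains axon growth in neurons and is 1 of the reprogramming factors, had 5.96, 7.29 and 7.41 in control B and 6.96, 7.47 and 7.56 in control S. The signals in Ptpn11D61Y slices were 6.60, 7.25 and 7.07 in B and 6.66, 7.52 and 7.66 in S. It was the other gene with S above B in all 6 animals: 0.99, 0.18 and 0.16 in control and 0.06, 0.27 and 0.59 in Ptpn11D61Y. Over both genotypes the step was 0.37 ± 0.28 (adjusted p = 0.891, limma), and by 0.30 ± 0.08 without the 4 arrays of replicate 1 (adjusted p = 0.510). The mean in control slices rested on animal 1: the step there was 0.44 ± 0.39 with it and 0.17 ± 0.12 without the arrays of replicate 1.

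Atf3, a bZIP factor that represses many of its targets and rises with stress, injury and firing alike, had 7.77, 8.30 and 8.24 in control B and 8.34, 8.44 and 8.58 in control S. It had 7.48, 8.29 and 8.28 in Ptpn11D61Y B and 7.33, 8.87 and 8.93 in Ptpn11D61Y S. In control slices every S value was above every B value, and in Ptpn11D61Y slices this was so only among animals 2 and 3. The step from B to S was 0.35 ± 0.39 in control and 0.36 ± 0.39 in Ptpn11D61Y slices. Without the arrays of replicate 1 it was 0.25 ± 0.10 and 0.62 ± 0.10, and Atf3 then passed the filter in Ptpn11D61Y slices (adjusted p = 0.627, limma), as 1 of the 10 genes, against 3.95% of all clusters on those 8 arrays. The difference between these steps was 0.37 ± 0.15 on those 8 arrays (adjusted p = 1).

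Maff, a small Maf protein that dimerizes with other bZIP factors, had signals of 6.30, 6.86 and 6.83 in control B and of 6.52, 6.85 and 6.97 in control S. Its signals were 5.91, 6.85 and 6.85 in Ptpn11D61Y B and 5.71, 7.05 and 7.11 in Ptpn11D61Y S. The 8 arrays of replicates 2 and 3 fell within 0.28 of each other, all above the 4 of replicate 1. Its S minus B was 0.23, -0.01 and 0.14 for the controls and -0.20, 0.20 and 0.26 for the mutants. It correlated with that of Atf3 over the 6 animals (r = 0.989, a description), the highest of 45 gene pairs. Over these pairs r ran upward from -0.37, with a median of 0.56.

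Btg2, an antiproliferative cofactor that binds the Ccr4-Not deadenylase, read 8.36, 8.10 and 8.53 in control B and 8.64, 8.55 and 8.64 in control S. It read 8.02, 8.36 and 8.00 in Ptpn11D61Y B and 7.69, 8.61 and 8.73 in Ptpn11D61Y S. Control S lay above control B in every value, and the 5 animals other than animal 1 of Ptpn11D61Y had more signal in S, by 0.12 to 0.74, against -0.33 in that animal. The step from B to S was 0.28 ± 0.27 in control and 0.22 ± 0.27 in Ptpn11D61Y slices.

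Dusp1, the nuclear phosphatase that switches off p38, JNK and ERK, had 8.70, 10.16 and 10.54 in control B and 8.83, 10.38 and 10.43 in control S. In Ptpn11D61Y slices the values were 8.63, 10.75 and 10.40 in B and 7.90, 10.60 and 10.66 in S. Over both genotypes its S minus B was -0.06 ± 0.58, the only value below 0 among the 10, and 0.07 ± 0.62 with the arrays centred on their medians, and S was above B in 3 of 6 animals. The lower mean in Ptpn11D61Y S rested on animal 1, with an S minus B of -0.73 against -0.15 and 0.26, and without the arrays of replicate 1 the step in Ptpn11D61Y slices was 0.06 ± 0.19.

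Counted within animals, S was above B in all 3 control animals for 7 of the 10 genes, against 13.0% of all clusters, and in all 3 Ptpn11D61Y animals for 3 of 10 (Nr4a2, Klf2 and Klf4), against 11.0%. In all 6 animals this was so for 2 of 10, Nr4a2 and Klf4, against 3.38% of all clusters and 6.39% of the 15868 genes with a mean log2 signal of at least 5. With each array centred on its median there were 3 of 10, with Atf3 added, against 6.60% of all clusters. Among the 4 animals numbered 2 and 3, 4 of 10 were higher in S in every animal (Nr4a2, Klf4, Btg2 and Atf3), against 12.2%. Of these background shares, only that for all 6 animals as deposited was also taken over brighter genes, where it was higher. The animals differed as much as the genes. The median S minus B over the 10 genes was 0.29, 0.20 and 0.15 in control animals 1 to 3, with 10, 9 and 8 genes above 0. It was -0.04, 0.07 and 0.68 in Ptpn11D61Y animals 1 to 3, with 4, 6 and 10 genes above 0, while the median over all clusters was between -0.30 and 0.07 in every animal. With centred arrays the medians of the 10 genes were 0.82, 0.14 and 0.28 for the controls and 0.16, 0.04 and 0.69 for the mutants. As deposited, the highest median was that of Ptpn11D61Y animal 3, and with centred arrays that of control animal 1. Ptpn11D61Y animal 3 was the animal whose basal sample was the one with choroid plexus RNA. In that animal 8 of 9 choroid plexus markers were lower in S (median -3.39), and 9 of 9 markers of excitatory neurons were higher (median 1.01), and the part of this shift in tissue in the values of the 10 genes was not tested.

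**Figure D3:**
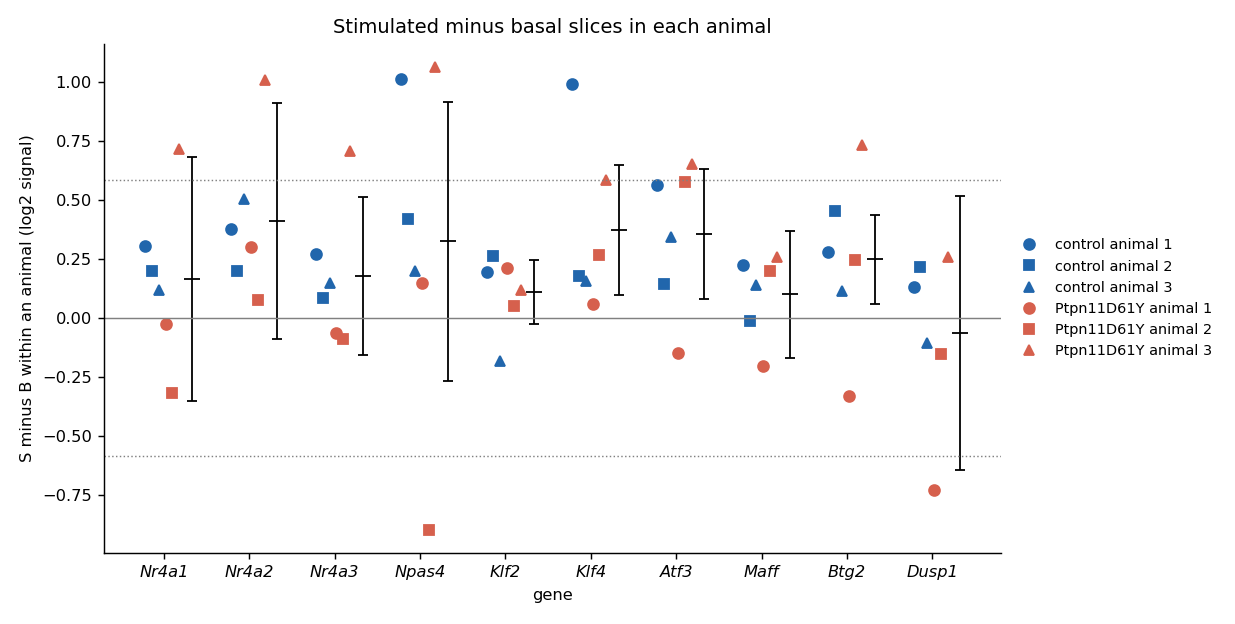
Log2 signal in S minus B within each of the 6 animals (colour for the genotype, shape for the animal number), with dotted lines at a fold of 1.5 either way. The step over both genotypes and its SE from limma are in black. This SE is from the fit without the animal as a block, so it holds differences between animals that the points do not. Nr4a2 and Klf4 have all 6 points above 0, and the points of Npas4 and Dusp1 lie on both sides.

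The replicate number went with a larger part of the variance of most of these genes than of most clusters. Its share of the variance over the 12 arrays had a median of 74.3% over the 10 genes against 28.4% over all clusters, and the share of the state (B or S) a median of 4.27% against 6.30%. All clusters include dim ones, and these shares were not taken over brighter clusters alone. Dusp1 had the largest share, 93.1%, followed by Nr4a2 with 89.2% and Nr4a1 with 83.3%. Btg2 had 16.3%, less than the median over all clusters, and Klf2 had 46.7%. The number has 3 levels and the state 2, so that the number takes the larger share of a variance that follows neither, and the shares of 1 gene are not to be set against each other. On the 4 arrays of replicate 1 the mean log2 signal stood at -1.97 for Dusp1, -1.69 for Npas4, -1.69 for Nr4a2, -1.64 for Nr4a1 and -0.10 for Klf2 relative to the other 8. For 5 of the 10 genes (Nr4a1, Nr4a2, Klf4, Dusp1 and Maff) the 4 arrays of replicate 1 were all below the other 8, which was so for 15.1% of all clusters and for 30.8% of the genes with a mean log2 signal of at least 5. The same was so for 28 of 34 other immediate early genes, 12 of 17 inflammation genes of the slice, 7 of 8 astrocyte markers, 3 of 9 markers of excitatory neurons and 2 of 11 heat shock genes. Since each number stands for 1 control and 1 Ptpn11D61Y animal, and the labels name no date, day of slicing or hybridization for it, animal and any such batch cannot be told apart.

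**Figure D4:**
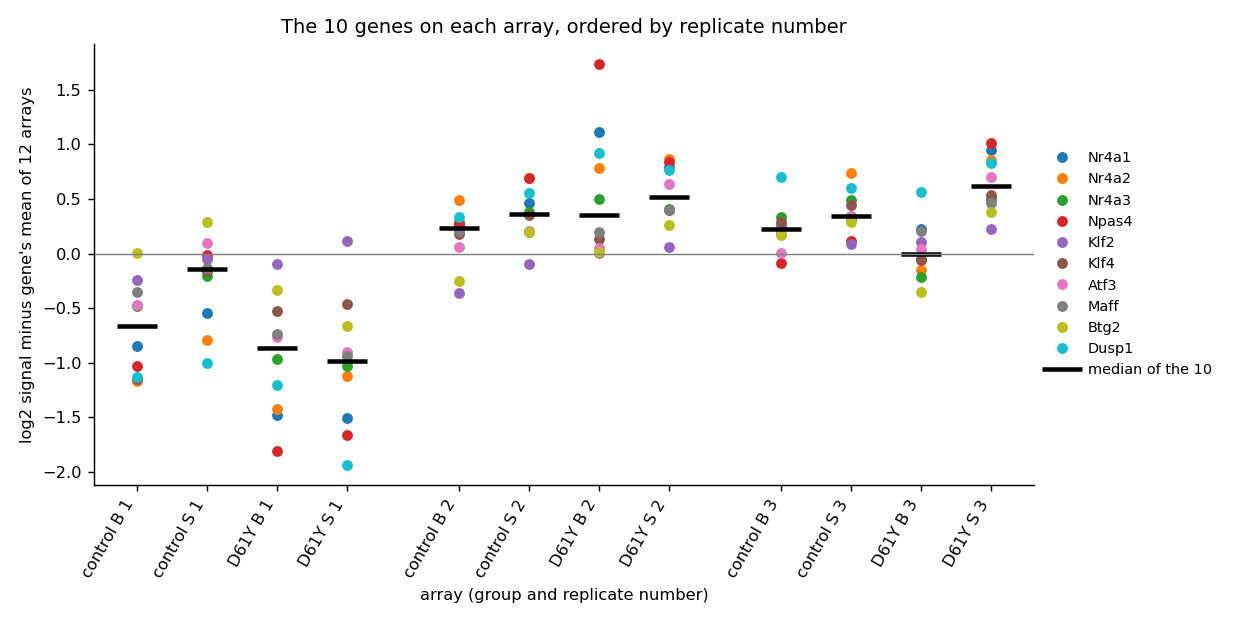
Log2 signal of each gene minus its mean over the 12 arrays, with arrays grouped by replicate number and a black bar at the median of the 10 genes. The medians on the 4 arrays of replicate 1 lie between -0.99 and -0.14, and those of the other 8 between -0.00 and 0.62.

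**Figure D5:**
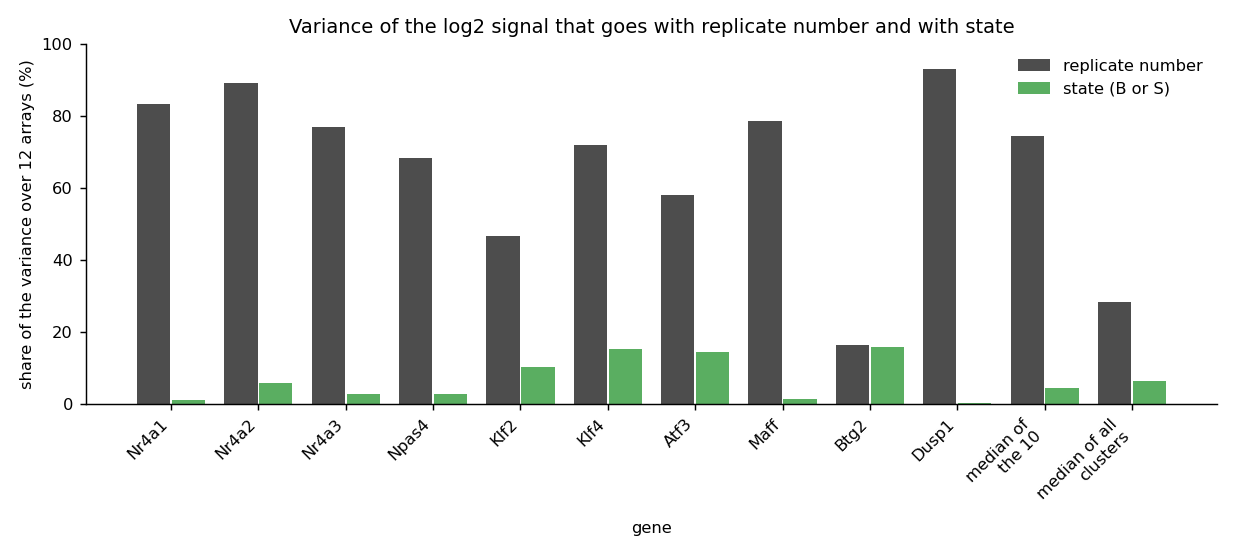
Share of the variance of the log2 signal over 12 arrays, in percent, that goes with the replicate number (grey) and with the state, B or S (green). The number has 3 levels and the state 2, so bars of unlike colour are not on equal terms. The grey bars of all genes but Btg2 stand above the grey median of all clusters (28.4%), and the medians of the 10 genes and of all clusters stand at the right.

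Without the 4 arrays of replicate 1, all 10 genes were on average higher in S in each genotype, with a median of 0.16 in control and 0.27 in Ptpn11D61Y slices against 0.01 and 0.05 over all clusters. Over both genotypes the median was 0.21, as on all 12 arrays, and the SEs were smaller: 0.43 ± 0.07 for Atf3, 0.39 ± 0.13 for Btg2, 0.45 ± 0.20 for Nr4a2 and 0.15 ± 0.08 for Maff. The smallest adjusted p among the 10 was 0.510 (limma on 8 arrays).

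Between the genotypes no difference of the 10 genes passed the test. In basal slices 5 of 10 were higher in Ptpn11D61Y (median -0.01 against 0.00 over all clusters), from -0.28 ± 0.47 for Nr4a3 to 0.24 ± 0.84 for Npas4, and 0 passed the filter, against 1.30% of all clusters. In stimulated slices 1 of 10, Klf2 (0.15 ± 0.19), was higher and 9 were lower in Ptpn11D61Y, with a median of -0.12 against 0.06 over all clusters, and 0 passed, against 1.83%. This count rested on replicate 1: without its 4 arrays all 10 were higher in Ptpn11D61Y S, with a median of 0.16. Leaving out Ptpn11D61Y S replicate 1 alone gave 10 of 10, and a median of 0.37. That fit keeps control S replicate 1, so the offset of replicate 1 enters this difference between the genotypes. The step from B to S differed between the genotypes by a median of -0.05 against 0.05 over all clusters, with 4 of 10 above 0 and 0 past the filter, against 1.17%. These differences had SEs of 0.27 (Klf2) to 1.19 (Npas4), with a 95% interval from -0.56 to 0.63 for Klf2, the narrowest, and from -1.20 to 1.22 for Atf3. Their median ran from -0.35 without Ptpn11D61Y B replicate 1 to 0.47 without Ptpn11D61Y S replicate 1. Both fits keep the other arrays of replicate 1, so these medians hold its offset too. With centred arrays 0 of 10 were above 0, against 10 of 10 with array weights.

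Of 34 other immediate early genes measured, 31 were higher in control S and 21 in Ptpn11D61Y S, with medians of 0.22 and 0.06. Among all clusters the share above 0 was 41.3% in control and 46.5% in Ptpn11D61Y slices, a background for the lists below too. Taken by animal number from 1 to 3, the list median was 0.32, 0.14 and 0.06 for the controls. For the mutants it was -0.14, 0.05 and 0.37. The lower mutant count was thus not shared by all animals: mutant animal 1 had the lowest median and mutant animal 3 the highest. The filter was passed upward by 1 gene of this list, in control. This was Ier2, a short-lived nuclear regulator, at 0.64 ± 0.28 in control and 0.29 ± 0.28 in Ptpn11D61Y slices (adjusted p = 0.912 and 1, limma). Jun, a subunit of AP-1, stood at 0.70 ± 0.96 and Fosb, its partner, at 0.51 ± 0.71 in Ptpn11D61Y slices. Zfp36, which speeds the decay of short-lived mRNAs, had 0.68 ± 0.70 over both genotypes. Of 26 regulators that carry activity to the nucleus, 23 and 20 were higher in S of control and of Ptpn11D61Y, and 0 passed the filter. Camk4, a kinase of CREB, stood at 0.32 ± 0.27 in control, Creb1 itself by 0.21 ± 0.17 and Mef2c, a calcium-responsive factor, by 0.45 ± 0.39.

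Among 43 relatives of the 10 genes, 26 were higher in control S (median 0.08) and 25 in Ptpn11D61Y S (median 0.04). Mafa, a large Maf protein best known as an insulin gene activator, was the only one past the filter, in control slices, and it was lower in S in all 6 animals, with S minus B from -0.97 to -0.24, and with -0.65 ± 0.19 in control and -0.47 ± 0.19 in Ptpn11D61Y slices (adjusted p = 0.912 and 1, limma). Of 17 partners, 13 and 11 were higher and 0 passed. Cnot7, the deadenylase that Btg2 binds, was at 0.30 ± 0.38 in control, and Mapk8 (JNK1) and Mapk14 (p38), which Dusp1 dephosphorylates, were at 0.34 ± 0.35 and 0.19 ± 0.23. Of 15 genes known as targets of Npas4 or of Nr4a receptors in neurons, 14 were higher in control S and 8 in Ptpn11D61Y S, and 0 passed. Here too the mutant animals differed, with list medians of -0.18, 0.12 and 0.31 by number, against 0.27, 0.13 and 0.23 for the controls. Bdnf, the neurotrophin, was at 0.38 ± 0.22 in control, Syt10, a synaptotagmin of secretory vesicles, at 0.61 ± 0.37 and Th, the enzyme of dopamine synthesis that Nr4a2 controls in the midbrain, at -0.42 ± 0.25, with S below B in all 6 animals. The share of all clusters with S below B in all 6 animals was not counted, so this pattern in Mafa and Th has no background. Over both genotypes, 41.1% of all clusters were above 0. In Ptpn11D61Y slices Pcsk1, a prohormone convertase, had 0.61 ± 0.31. Of heat shock genes, 11 of 11 were higher in control S (median 0.23) and 10 in Ptpn11D61Y S (0.16), whereas of 17 inflammation genes 6 and 7 were higher (medians -0.12 and -0.17). Neither list had a gene past the filter, and the part of handling stress in the values of the 10 genes was not tested.

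The signals of the 10 genes went together over the arrays. Over the 12 arrays, which share animals and replicate numbers, Pearson's r was above 0 for all 45 pairs, with a median of 0.82, and reached 0.95 for each of the 3 pairs of Nr4a genes and 0.96 for Nr4a1 with Npas4. Over the 8 arrays of replicates 2 and 3 the median was 0.51, from -0.10 (Nr4a2 with Klf2) to 0.97 (Atf3 with Maff), with 0.95 for Nr4a1 with Npas4 and 0.93 for Klf4 with Btg2. The 8 genes most like the mean of the 10 over the 12 arrays were Smdt1, a part of the mitochondrial calcium uniporter (r = 0.992), Pi4k2a, a lipid kinase (0.988), Fscn1, an actin-bundling protein (0.988), Rnf5, a ubiquitin ligase (0.988), Acap3 (0.987), the cell-cycle kinase Cdk4 (0.986), Lsm12 (0.985) and the phosphatase Ptp4a2 (0.985). None of these 8 is on the list of immediate early genes. Likeness was common on these arrays: the median r over 15858 candidate genes was 0.61 on the 12 arrays and 0.23 on the 8 of replicates 2 and 3. For the 8 named genes r was 0.84 (Lsm12) to 0.95 (Fscn1) on these 8 arrays, which were also part of the choice. The 8 genes had steps of 0.07 (Acap3) to 0.33 (Rnf5) over both genotypes. They were picked by their likeness to the 10 on these same arrays. A step in the direction of the mean of the 10 is therefore built into the choice.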

How the data were processed

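The deposited values are signal intensities on a linear scale, made by the authors in Expression Console with background correction, quantile normalization and PLIER (version not given in the sources used here), although the methods speak of log2 values. Intensities below 1 were set to 1 here and all were converted to log2. The 12 columns were matched to samples by their labels, and 0 per-sample columns were left unused. The platform annotation gave the symbols. All clusters were fitted together in R 4.3.3 with limma 3.58.1 (means of the 4 groups, variance prior with an intensity trend, 8 residual degrees of freedom); 95% intervals use the moderated degrees of freedom, and p-values were adjusted by Benjamini-Hochberg over 41345 clusters. Calls used the study's filter, a fold of at least 1.5 and an unadjusted p under 0.05. The fit was also checked on simulated arrays with known fold changes. Their noise was independent between arrays, without offsets of animal or replicate number, so the check does not cover such offsets.

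The labels give same-numbered B and S samples of a genotype the same animal. Their deviations from the group means correlated at 0.05, -0.01 and 0.04 across all clusters in control and at 0.55, 0.39 and 0.19 in Ptpn11D61Y animals. Across the 10 genes they correlated at 0.88, 0.84 and 0.69 and at 0.92, 0.80 and 0.37, so that the SEs without the block hold differences between animals that the steps within an animal do not. The fit chosen has no block, like the methods, and the animal was tried as a block.

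The 10 genes, the gene lists, the motifs and the rule for naming were chosen with earlier results of these data known. Named are the 10 genes and the 8 genes most correlated with the mean of the 10. From a list, named genes are among the 3 of largest moderated t in the comparison spoken of, but not all 3 were always named. Ptpn11 and Ttr are given as checks of the samples, and Arc because the paper measured it. Alternatives were the methods' test, other variance priors, scalings and filters, blocks by animal or number, array weights, and leaving out arrays singly or the 4 of replicate 1. Centred arrays with the animal block were added after seeing the data. Promoter sequences came from RefSeq, GRCm38.p6, through a table that is not complete. The number of arrays limits the precision.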

Additional observations from a re-analysis of the deposited data

How the results depend on the processing

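As reported, none of the 6 comparisons had a gene of the 10 past the filter, and under other settings 1 gene passed in a few. Atf3 passed in Ptpn11D61Y slices with array weights (0.61, adjusted p = 0.257, limma; 1 of 10, against 8% of all clusters), without the 4 arrays of replicate 1 (1 of 10, against 3.95%), and without Ptpn11D61Y S replicate 1 (0.89, adjusted p = 0.896, against 2.31%), and without that array also over both genotypes (0.62, against 4.05%). Leaving out single arrays thus gave 0 to 1 of 10 in these 2 comparisons and 0 in the other 4. Without Ptpn11D61Y S replicate 1 the fit keeps the low Atf3 value of Ptpn11D61Y B replicate 1 (7.48), which adds to the step. Klf4 passed in control slices (0.64, adjusted p = 0.529; 1 of 10, against 5.94% of all clusters) with centred arrays and the animal block. No such call passed an adjusted p of 0.05. With the animal as a fixed replicate block, 0 of 10 passed in the 3 stimulation comparisons and the difference between genotypes, the comparisons this block can serve, the smallest adjusted p among the 10 being 0.620 in control, 1 in Ptpn11D61Y slices and 0.591 over both (Nr4a2, unadjusted 0.0135). The block changed no call among the 10. Among all clusters 1853 then passed in control against 1311.

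The median change of the 10 genes in control slices was 0.44 with the arrays centred on their median, also with the animal block, and 0.16 without the arrays of replicate 1. It ran from -0.041 (without control B replicate 1) to 0.47 (without control S replicate 1) as single arrays were left out. The ranges were -0.15 to 0.69 in Ptpn11D61Y slices, 0.040 to 0.48 over both genotypes and -0.35 to 0.47 for the difference between genotypes, for which array weights gave 0.29. The lowest of these came without Ptpn11D61Y B replicate 1 and the highest without Ptpn11D61Y S replicate 1. Genotype differences in basal slices ran from -0.30 to 0.23 and in stimulated slices from -0.42 to 0.37. Each fit without 1 array keeps the other arrays with that number, so these ranges also hold differences between replicate numbers. The size of that part was not tested. The median of all clusters moved from -0.10 to 0.10 in control slices with centred arrays. No gene of the 10 had a second cluster, and all passed the limit on dim clusters, so a second cluster or that limit could give no other value for them. Counts over all clusters past the filter in control slices, 1311 on 12 arrays, were 547 with an offset of 16, 628 among brighter clusters, 734 by the methods' test and 2303 with the animal as a random block. In Ptpn11D61Y slices, 473 became 187, 134 and 841 under the first, second and last of these, 3306 with array weights and 1632 without replicate 1.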
